A study of Rattus norvegicus with 15 samples.

Results

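The genes described here drive or mark passage through the cell cycle: cyclins Ccnb1, Ccnb2, Ccna2 and Ccnd1, the cyclin-dependent kinase Cdk1, DNA topoisomerase Top2a, the proliferation marker Mki67, the mitotic kinases Plk1 and Aurka, and the checkpoint kinase Bub1b. They were taken by gene symbol from the annotation of the array, with the probe set of highest mean level where a gene had several, and 9 of the 10 were measured among 14506 genes. No probe set carried the symbol Mki67, which is not analysed here. Each gene was read on all 15 arrays by dose and by title number, and set against the signal of olfactory receptor genes, which served as a floor.

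The arrays came from freshly isolated rat hepatocytes that had adhered for 24 h in microfluidic biochips, small collagen-coated culture chambers, and were then perfused at 25 µl/min for 24 h. The medium held DMSO as solvent (5 arrays), 10 µM flutamide (6 arrays) or 100 µM flutamide (4 arrays). Flutamide is a nonsteroidal antiandrogen with known liver toxicity. All groups had insulin and fetal serum in the seeding medium and insulin, transferrin and selenium during perfusion, and the labels give no strain, sex or age of the animals. Title numbers fall into 2 runs: run 2 (20 to 27) held 3 DMSO, 3 10 µM and 2 100 µM arrays, and run 1 (10 to 16) held 2, 3 and 2. The labels do not say what the runs stand for, nor whether biochips hold cells of separate animals, so the p-values below cover the spread between biochips alone, which may be technical.

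Most hepatocytes of an adult liver rest outside the cell cycle and re-enter it after tissue loss or injury. Growth signals first raise cyclin D1 (Ccnd1), which with Cdk4 and Cdk6 carries the cell through G1. The mitotic genes follow later: they are held down in resting cells by the DREAM complex and switched on in G2 by B-Myb and FoxM1, acting on short promoter elements called the cell cycle genes homology region (CHR) and the CCAAT box, the binding site of NF-Y. Cyclins A2 and B1 and B2 activate Cdk1, Plk1 and Aurka build the spindle, Bub1b (BubR1) delays anaphase until chromosomes are attached, and Top2a untangles the copied DNA. Rat hepatocytes in culture can pass from G1 into DNA synthesis when given a growth factor.

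The promoters of the mitotic genes are shown because many of them, though not all, hold these 2 elements. RefSeq's promoter table (GRCr8) held entries for 8 of the 10 genes, each reaching from 250 bases before the start of a transcript to 50 from it. Ccna2 and Ccnd1 were not among them. The 5 windows of 200 bases below begin 150 bases before that start and run 5′ to 3′ on the strand of the gene, with capitals marking matches to the CHR (TTTGAA or TTCGAA) and to the CCAAT box (CCAAT). Both were searched on both strands, so a match on the opposite strand reads TTCAAA or ATTGG.
Ccnb2, chr8:79981609-79981808, minus strand: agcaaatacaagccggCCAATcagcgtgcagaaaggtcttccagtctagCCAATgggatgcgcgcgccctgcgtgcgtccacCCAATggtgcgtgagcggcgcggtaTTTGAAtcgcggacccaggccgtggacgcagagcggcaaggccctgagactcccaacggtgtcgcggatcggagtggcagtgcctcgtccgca
Ccnb1, chr2:33655176-33655375, minus strand: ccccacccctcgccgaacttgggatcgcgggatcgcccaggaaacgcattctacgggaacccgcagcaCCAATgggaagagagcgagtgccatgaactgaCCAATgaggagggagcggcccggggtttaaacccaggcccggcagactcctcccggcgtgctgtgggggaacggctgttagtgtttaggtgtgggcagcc
Cdk1, chr20:19265143-19265342, plus strand: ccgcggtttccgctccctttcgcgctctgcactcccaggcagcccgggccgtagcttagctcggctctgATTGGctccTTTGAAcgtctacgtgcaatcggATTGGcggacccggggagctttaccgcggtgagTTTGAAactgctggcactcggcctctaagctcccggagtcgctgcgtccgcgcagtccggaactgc
Top2a, chr10:84473044-84473243, minus strand: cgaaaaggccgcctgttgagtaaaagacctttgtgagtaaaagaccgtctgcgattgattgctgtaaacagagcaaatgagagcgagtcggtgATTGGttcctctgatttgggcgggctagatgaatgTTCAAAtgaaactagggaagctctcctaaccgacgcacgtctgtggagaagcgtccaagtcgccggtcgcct
Plk1, chr1:186147508-186147707, plus strand: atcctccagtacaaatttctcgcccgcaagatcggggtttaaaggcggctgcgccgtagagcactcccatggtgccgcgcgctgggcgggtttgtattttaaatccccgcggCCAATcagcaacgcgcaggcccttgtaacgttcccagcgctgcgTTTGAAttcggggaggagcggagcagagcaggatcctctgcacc

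Ccnb2 held 3 CCAAT boxes in a row at -134, -101 and -68, followed by a CHR at -43 (positions of the first base of the match, counted from the start of the table's transcript). Cdk1 held the same elements in the opposite orientation of the CCAAT box, at -81 and -49, with CHRs at -72 and -16. Ccnb1 held CCAAT boxes at -82 and -50 and no match to the CHR letters in its 300 bases. Plk1 held a CCAAT box at -38 and a CHR at 7, downstream of the start. Over the 300-base entries, 6 of the 8 held a CHR, 6 of the 8 a CCAAT box and 5 of the 8 both. The shares over 33469 promoters of the same length were 19.7%, 37.5% and 7.95%. Of 36 promoters of other mitotic genes, 25 held a CHR, 26 a CCAAT box and 20 both. An E2F site (TTTGGCGC, TTTCCCGC, TTTCGCGC or TTTGCCGC, both strands) was matched in 1 of the 8, at -133 in Cdk1, in 0 of the 36 other mitotic promoters and in 2.14% of all promoters. In the Mki67 promoter 1 CHR overlapped a CCAAT box. Aurka matched none of the 3 motifs in its window, which is set on a transcript that starts 2121 bases inside the gene as RefSeq annotates it. The starts used for Mki67, Ccnb2, Bub1b and Cdk1 lay 254, 59, 48 and 41 bases inside the annotated gene, so the whole Mki67 window lay within it. These matches describe letters in the windows, not binding.

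**Figure D1:**
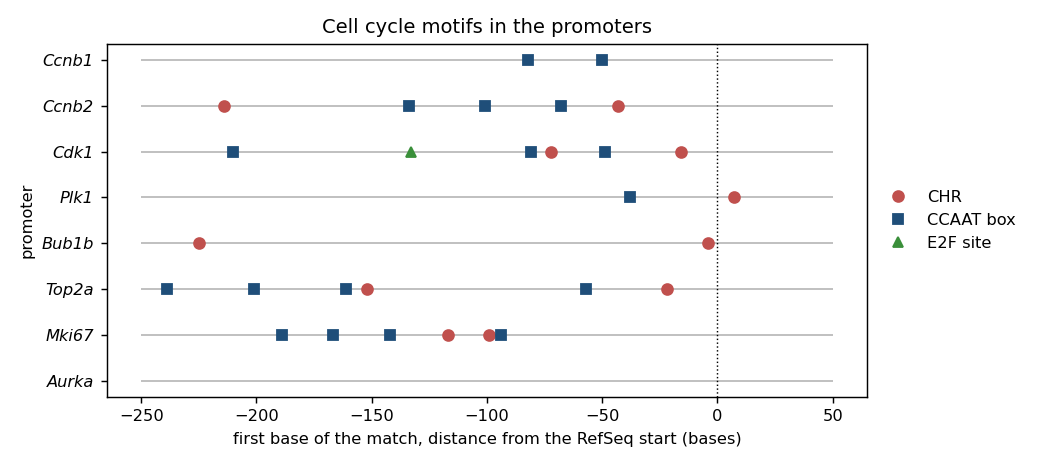
Matches to the CHR, the CCAAT box and the E2F site in the 8 promoters with a RefSeq entry, on either strand, by the distance of the first base of the match from the start of the table's transcript (x axis, bases; dotted line, the start). Ccnb2, Cdk1, Top2a, Plk1 and Mki67 held both a CHR and a CCAAT box, Ccnb1 held CCAAT boxes only, Bub1b CHRs only and Aurka neither.

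The deposited values are log2 levels, so a difference of 1 stands for a doubling of signal, and levels of different probe sets were not set against each other. The floor of an array was the 95th percentile of its 59 olfactory receptor probe sets, sensory genes of the nose. Marker and pathway genes count as above it where their mean over the arrays exceeded its mean. By that rule 9163 of the 14506 genes lay above the floor. Hepatocyte markers were high: 12 of 12, among them the plasma proteins Alb and Ttr and the urea cycle enzyme Cps1, lay above the floor. Their mean log2 level was 10.62 to 10.83 in DMSO arrays, 10.52 to 11.09 in 10 µM arrays and 10.35 to 10.65 in 100 µM arrays. Of the macrophage markers 12 of 14 lay above the floor, against 5 of 12 for stellate cells, 2 of 10 for lymphocytes, 2 of 7 for cholangiocytes, 1 of 8 for endothelial cells and 1 of 4 for red blood cells. Array 23 (10 µM) resembled the others least: its median correlation with them was 0.962 and its quality weight 0.205. Weights of 0.427 and 0.549 were found for array 15 (100 µM) and array 24 (10 µM). In bulk RNA, fewer cells of a type and less RNA per cell cannot be told apart.

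Against the floor, the genes split into a readable and a dim set. By their mean over the arrays 5 of the 9 lay above it, beside 9163 of all 14506 genes. The floor lay at 4.79 to 5.45 on the 15 arrays, and the median olfactory receptor at 3.38 to 3.62. Ccnd1, Ccnb2, Plk1 and Aurka exceeded it on all 15 arrays. Ccna2 did so on 9 arrays and Top2a on 3, which were the 10 µM arrays 12, 13 and 24. Ccnb1, Cdk1 and Bub1b lay under it on all 15 arrays, although all 9 genes exceeded the median olfactory receptor on each array. Ccnd1 lay 0.60 to 1.71 above it, with a median of 1.11. Ccnb2 lay 0.01 to 1.47 above, Aurka 0.12 to 1.22 and Plk1 0.15 to 0.62. Cdk1, the kinase that drives entry into mitosis, differed from the floor by -1.72 to -0.37. With the 99th percentile as the floor, Ccnd1 alone of the 9 stayed above it on all 15 arrays. A gene under the floor is one whose signal these arrays did not separate from that of olfactory receptors, not one shown to be silent.

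**Figure D2:**
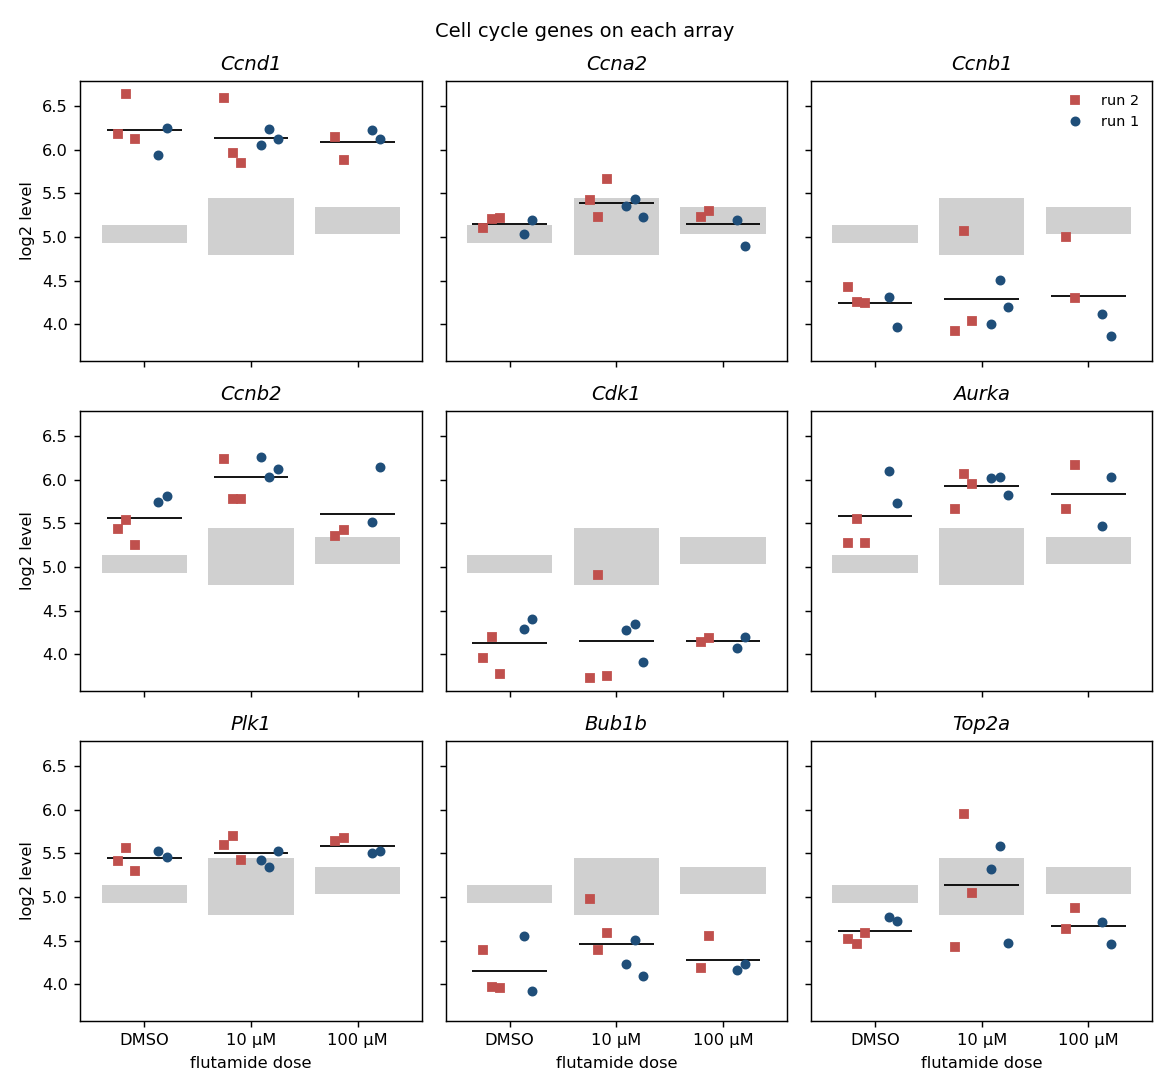
The log2 level (y axis) of the 9 measured genes on each array, by flutamide dose (x axis); red squares are run 2, blue circles run 1, black lines the mean of the dose group, and grey bands the range over the group's arrays of the 95th percentile of olfactory receptor probe sets. Ccnd1 lies above the band at each dose, while Ccnb1, Cdk1 and Bub1b lie under or within it.

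Ccnd1, the G1 cyclin induced by growth signals, lay above the floor on all arrays, and its dose groups overlapped. Its log2 level was 5.94, 6.25, 6.18, 6.64 and 6.12 in the DMSO arrays 10, 11, 20, 21 and 22. The 10 µM arrays had 5.85 to 6.59 with a median of 6.09, and the 100 µM arrays 15, 16, 26 and 27 had 6.23, 6.12, 6.14 and 5.88. The 2 highest readings, in DMSO array 21 and 10 µM array 23, both came from run 2. The difference from DMSO was -0.09 ± 0.14 at 10 µM and -0.13 ± 0.16 at 100 µM (SE; limma with run as a block, adjusted p 0.948 and 0.903 over all genes). The 95% intervals ran from -0.39 to 0.21 and from -0.46 to 0.21.

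Ccnd1 was highest on the 2 arrays where macrophage markers were highest. Its 5 nearest genes by Pearson correlation over the 15 arrays were Chp1 (0.870), C1qc (0.864), a complement subunit made by macrophages, Serpinh1 (0.856), a collagen chaperone, Cldn1 (0.848), a tight junction protein, and Mab21l3 (0.846). The mean levels of Serpinh1 (4.51) and Cldn1 (5.09) lay under the mean floor of 5.12. The mean log2 level of 14 macrophage markers was 7.39 in 10 µM array 23 and 6.95 in DMSO array 21, the same 2 arrays in which Ccnd1 was highest. It ranged from 6.03 to 6.95 in DMSO, from 5.82 to 7.39 at 10 µM and from 5.83 to 6.46 at 100 µM. Of the 14 markers Adgre1 and Ptprc lay at the floor. The median difference of the 14 from DMSO was -0.20 at 10 µM (11 of 14 lower) and -0.32 at 100 µM (13 of 14 lower), and 0 passed limma's adjusted p. Positive differences made up 49.1% and 55.7% of all genes. Cd68 had the lowest p of the 14 at both doses and lay higher. Its differences were 1.17 ± 0.38 at 10 µM and 1.18 ± 0.42 at 100 µM (SE, limma, adjusted p 0.447 and 0.665). Over the 15 arrays Ccnd1 and this mean had r = 0.77 (two-sided permutation test, p = 0.00162, adjusted p = 0.0146 over the 9 genes), and Spearman's rho was 0.58 (permutation p = 0.0243, adjusted p = 0.219). Without the 2 arrays farthest from the median marker level, 23 and 21, r was 0.34 (permutation p = 0.259), so the relation rests on those arrays. Within run 2 r was 0.92, and within run 1 it was -0.63. The other 8 genes had adjusted p of 0.537 to 0.659. This relation was examined after C1qc had appeared among the nearest genes. C1qc is itself 1 of the 14 markers, so these p-values partly restate that observation. The part of the markers in the level of Ccnd1 was not tested.

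**Figure D3:**
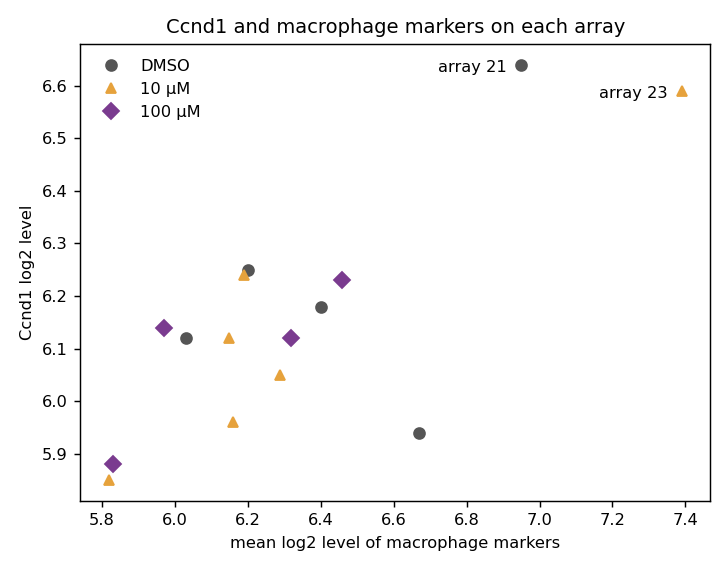
Log2 level of Ccnd1 (y axis) against the mean log2 level of 14 macrophage markers (x axis), one point per array, with shape and colour for the dose. The arrays 21 (DMSO) and 23 (10 µM), named in the plot, lie at the upper right and carry the correlation of 0.77, which is 0.34 without them.

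The cyclins Ccnb2 and Ccna2 had their highest group means at the lower dose. Ccnb2, a mitotic B-type cyclin, had log2 levels of 5.75, 5.81, 5.44, 5.54 and 5.25 in DMSO arrays 10, 11, 20, 21 and 22. The 10 µM arrays had 5.78 to 6.26 with a median of 6.08, and the 100 µM arrays 15, 16, 26 and 27 had 5.52, 6.14, 5.36 and 5.43. All 10 µM arrays lay above 4 of the 5 DMSO arrays, and 4 of the 6 lay above every DMSO array. At 100 µM, array 16 alone lay above the DMSO arrays. The group means were 6.04 ± 0.21 at 10 µM (SD, n = 6) and 5.56 ± 0.23 in DMSO (SD, n = 5), and the fitted difference was 0.45 ± 0.12 (SE; 1.36-fold, 95% interval 0.20 to 0.70). Limma gave an unadjusted p of 0.00188 and an adjusted p of 0.350 over all genes, so the difference did not pass the test. At 100 µM it was 0.02 ± 0.13 (adjusted p 0.981). A second Ccnb2 probe set, which correlated with the one used at 0.98 over the arrays, gave 0.41 ± 0.11 at 10 µM (limma, adjusted p 0.361) and 0.03 at 100 µM.

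Ccna2, the cyclin of S phase and G2, was the one gene of the 9 whose 10 µM arrays all lay above all DMSO arrays. Its levels were 5.03, 5.20, 5.10, 5.21 and 5.22 in the DMSO arrays in the same order, 5.23 to 5.67 with a median of 5.39 at 10 µM, and 5.19, 4.90, 5.23 and 5.30 at 100 µM. Such a separation between 10 µM and DMSO was found for 60 of 14506 genes, or 0.414%. The gap between the nearest 2 arrays was small, 5.23 at 10 µM against 5.22 in DMSO. The fitted difference was 0.25 ± 0.09 at 10 µM (SE; 95% interval 0.06 to 0.44, limma, unadjusted p 0.0126, adjusted p 0.495) and 0.01 ± 0.10 at 100 µM (adjusted p 0.988). Ccna2 lay close to the floor throughout, differing from it by -0.15 to 0.62.

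Ccnb1, the main partner of Cdk1 in mitosis, and Cdk1 itself lay under the floor on all arrays, so their order between doses could not be read. Ccnb1 had 4.31, 3.97, 4.43, 4.26 and 4.25 in DMSO arrays, 3.92 to 5.07 with a median of 4.12 at 10 µM, and 4.12, 3.87, 5.00 and 4.30 at 100 µM. Array 24 (10 µM) and array 26 (100 µM), both of run 2, were high, and the other treated arrays lay at 3.87 to 4.51, around the DMSO range. The differences from DMSO were 0.07 ± 0.20 at 10 µM and 0.10 ± 0.23 at 100 µM (SE; limma, adjusted p 0.979 and 0.955). Cdk1 had 4.29, 4.41, 3.96, 4.20 and 3.78 in DMSO arrays, 3.73 to 4.91 with a median of 4.09 at 10 µM, and 4.07, 4.20, 4.14 and 4.19 at 100 µM. Its differences were 0.02 ± 0.19 and 0.01 ± 0.21 (SE; limma, adjusted p 0.993 and 0.995), with intervals of -0.39 to 0.42 and -0.43 to 0.45. Array 24 was again the highest.

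Top2a had the widest spread at 10 µM. Its levels were 4.77, 4.73, 4.52, 4.46 and 4.59 in DMSO arrays, 5.32, 5.58, 4.47, 4.43, 5.95 and 5.05 in 10 µM arrays 12, 13, 14, 23, 24 and 25, and 4.71, 4.46, 4.64 and 4.87 in 100 µM arrays. Of the 10 µM arrays 4 of 6 lay above every DMSO array, while arrays 14 and 23 lay within or under the DMSO range. The means were 5.13 ± 0.61 at 10 µM (SD, n = 6) and 4.62 ± 0.13 in DMSO (SD, n = 5). The fitted difference was 0.52 ± 0.23 (SE; 95% interval 0.01 to 1.02, limma, unadjusted p 0.0454, adjusted p 0.641), and at 100 µM it was 0.05 ± 0.26 (adjusted p 0.978). Because Top2a lay under the floor on every DMSO and 100 µM array, and above it on 3 of the 6 10 µM arrays, these differences rest on a level not separated from that of olfactory receptors and give no fold.

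Of the mitotic kinases, Aurka lay somewhat higher at 10 µM than in DMSO and Plk1 lay close to DMSO, within the spread between arrays. Bub1b lay under the floor on all arrays, so its order between doses could not be read. Aurka, which matures centrosomes and the spindle, had 6.10, 5.73, 5.28, 5.55 and 5.27 in DMSO arrays, 5.66 to 6.07 with a median of 5.98 at 10 µM, and 5.47, 6.03, 5.67 and 6.17 at 100 µM. The DMSO array 10 was above all 10 µM arrays, and the 4 lowest levels were those of the 3 DMSO arrays of run 2 and of 100 µM array 15. The differences were 0.32 ± 0.15 at 10 µM and 0.23 ± 0.17 at 100 µM (SE; limma, adjusted p 0.661 and 0.819). Bub1b had 4.55, 3.92, 4.39, 3.97 and 3.96 in DMSO arrays, 4.10 to 4.98 with a median of 4.45 at 10 µM, and 4.16, 4.23, 4.19 and 4.56 at 100 µM, with differences of 0.32 ± 0.16 and 0.14 ± 0.17 (SE; limma, adjusted p 0.661 and 0.904). Plk1, which acts from mitotic entry to cell division, had 5.53, 5.46, 5.41, 5.56 and 5.30 in DMSO arrays, 5.34 to 5.70 at 10 µM and 5.50 to 5.68 at 100 µM. Its differences were 0.06 ± 0.08 and 0.15 ± 0.08 (SE; limma, adjusted p 0.920 and 0.779).

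**Figure D4:**
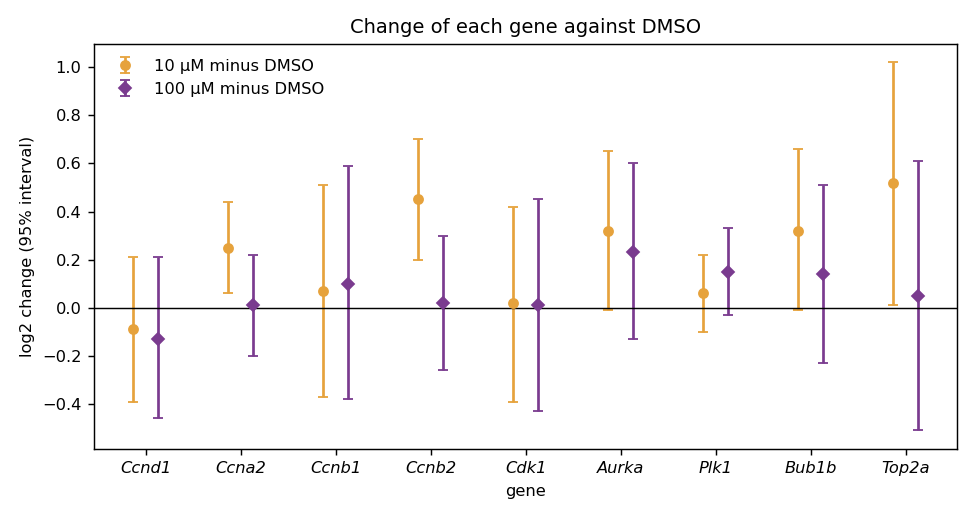
Fitted log2 difference from DMSO (y axis) of each gene at 10 µM (orange circles) and 100 µM (purple diamonds), with 95% intervals from limma. At 10 µM the intervals of Ccnb2, Ccna2 and Top2a lie above 0, and at 100 µM the interval of each of the 9 genes spans 0.

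At 10 µM, none of the 9 genes passed an adjusted p of 0.05 in limma, and no gene of the 14506 did (0%). At an unadjusted p under 0.05, 3 of the 9 lay higher at 10 µM than in DMSO (Ccnb2, Ccna2 and Top2a), beside 555 genes higher, or 3.83% of those tested, and 1109 in either direction. Of these 3, Ccnb2 alone lay above the floor on all arrays. The sign was positive in 8 of the 9, all but Ccnd1, beside 49.1% of all genes. Among these 8, Ccnb1, Cdk1 and Bub1b lay under the floor on all arrays and Top2a exceeded it on 3. The differences of Ccnb1 (0.07 ± 0.20), Cdk1 (0.02 ± 0.19) and Plk1 (0.06 ± 0.08) were smaller than their SE. The median difference of the 9 was 0.25 and that of the 8 mitotic genes 0.29, beside 0 over all genes. Leaving out single arrays gave counts of 2 to 5: the count was 2 without DMSO array 11, 21 or 22, without 10 µM array 12, 13 or 25 and without 100 µM array 16 or 26, and was 5 without 10 µM array 14 (1143 of all genes in either direction). It was 3 without arrays 15, 23 and 24 (1277 of all genes) and 0 within run 1 (773 of all genes). Hepatocyte markers went both ways in the same comparison: 5 of 12 had an unadjusted p under 0.05 in limma, beside 7.65% of all genes in either direction, and 0 passed after adjustment. Ttr (0.41), Apoa1 (0.28), Ahsg (0.24) and Serpina1 (0.19), all made for secretion, lay higher at 10 µM, and the liver transcription factor Hnf4a lay lower (-0.62). Their part in the cell cycle values was not tested.

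At 100 µM, 0 of the 9 genes and 0% of all genes passed limma's adjusted p against DMSO, and 0 of the 9 had an unadjusted p under 0.05, beside 993 genes or 6.85%. The sign was positive in 8 of the 9, beside 55.7% of all genes, with a median of 0.05 beside 0.02 over all genes. Among these 8, Ccnb1, Cdk1, Bub1b and Top2a lay under the floor on every DMSO and 100 µM array. The largest difference was that of Aurka (0.23), and the 95% intervals still allowed 0.61 for Top2a and 0.60 for Aurka. Of the 12 hepatocyte markers 3 lay lower at 100 µM at an unadjusted p under 0.05 and 0 higher. Over all genes 3.42% lay lower and 3.43% higher. The 3 were Asgr1 (-0.65), Cyp2e1 (-0.83) and Cps1 (-0.70), with adjusted p of 0.510, 0.715 and 0.728 in limma. Of the 12 markers 5 had positive and 7 negative differences, with a median of -0.04. Their part was not tested. The 2 comparisons share their DMSO arrays.

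Between the doses, Ccnb2 had a difference of 100 µM minus 10 µM of -0.43 ± 0.12 (SE; 95% interval -0.69 to -0.16), Ccna2 one of -0.24 ± 0.09 (-0.44 to -0.04) and Top2a one of -0.46 ± 0.25, with an interval that reached 0.07. None of these passed limma's adjusted p, which was 0.930 for each, and 0 of the 9 genes and 0% of all genes were called. At an unadjusted p under 0.05, Ccnb2 (0.00420) and Ccna2 (0.0221) lay lower at 100 µM, 2 of the 9, beside 339 genes or 2.34% lower and 723 in either direction. The count was 1 without 10 µM array 25 (761 of all genes in either direction) and without 100 µM array 16 (1004 of all genes). It was also 1 without arrays 15, 23 and 24 together (724) and within run 2 (456). It was 3 without 10 µM array 14 (602) or array 23 (1078), and 0 within run 1 (1046). Of the 9 genes 7 were lower and 2 higher, with a median of -0.09 beside 0.02 over all genes.

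Among the 9 genes, Ccnb2 had the lowest p between the runs, and the dose differences were also taken within each run. The difference of run 2 minus run 1 was -0.32 ± 0.10 (SE; limma, unadjusted p 0.00631, adjusted p 0.211). Ccnb2 was the only one of the 9 at an unadjusted p under 0.05, beside 904 genes or 6.23% lower in run 2. Of all genes 79, or 0.545%, passed the adjusted threshold between the runs, and 0 of the 9 did. With array quality weights the difference of Ccnb2 was -0.40 and passed (limma, adjusted p 0.0268), as it did without arrays 15, 23 and 24 (-0.46, adjusted p 0.0324). More of all genes passed in these fits as well, 191 and 100 against 79. The difference between 10 µM and DMSO kept its sign in both runs for Ccnb2, at 0.53 ± 0.15 in run 2 and 0.36 ± 0.18 in run 1 (SE). The same held for Ccna2 (0.27 in run 2 and 0.22 in run 1) and for Top2a (0.62 ± 0.33 and 0.37 ± 0.30).

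Aurka and Bub1b gave unequal values in the runs, and none of them passed the test. Bub1b lay under the floor on all arrays, so its differences rest on a level not separated from that of olfactory receptors. For Aurka the difference between 10 µM and DMSO was 0.53 ± 0.17 in run 2 and 0.04 ± 0.19 in run 1, and for Bub1b 0.55 ± 0.20 in run 2 and 0.04 ± 0.21 in run 1 (SE; limma, adjusted p in run 2 0.297 for Aurka and 0.347 for Bub1b). For Aurka the DMSO arrays of run 2 averaged 5.36 ± 0.16 (SD, n = 3) and those of run 1 5.92 ± 0.26 (SD, n = 2), while the 10 µM arrays averaged 5.89 ± 0.21 in run 2 and 5.95 ± 0.12 in run 1 (SD, n = 3 each). At 100 µM Aurka differed from DMSO by 0.55 ± 0.19 in run 2 and -0.17 ± 0.21 in run 1. The test of the difference between runs, the interaction of dose and run in limma, gave 0.49 ± 0.27 for Aurka and 0.50 for Bub1b at 10 µM (adjusted p 0.558 and 0.584), and for Aurka 0.72 ± 0.30 at 100 µM (SE; 95% interval 0.07 to 1.38, unadjusted p 0.0335, adjusted p 0.794). Aurka was the 1 gene of the 9 with an unadjusted p under 0.05 there, beside 320 genes or 2.21% in that direction. After adjustment 0 of the 9 passed at either dose, beside 6 genes (0.0414%) at 10 µM and 1 gene (0.00689%) at 100 µM.

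**Figure D5:**
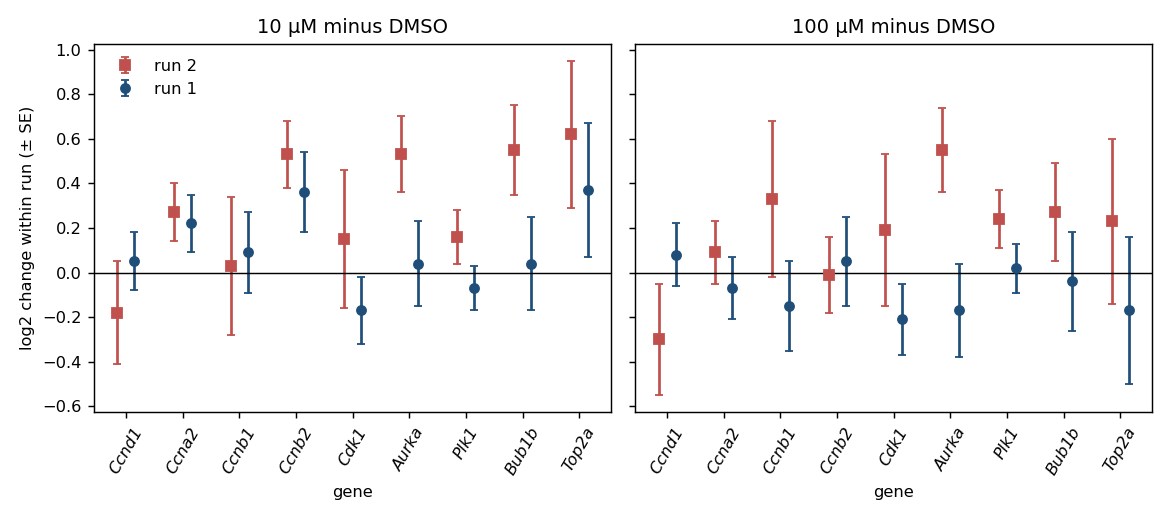
Log2 difference of each gene from the DMSO arrays of its own run (y axis; bars, SE), at 10 µM (left) and 100 µM (right), with red squares for run 2 and blue circles for run 1. Ccnb2, Ccna2 and Top2a lie above 0 in both runs at 10 µM, and Aurka lies above 0 in run 2 and near or under 0 in run 1.

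The genes varied together only loosely from array to array. Over the 28 pairs of mitotic genes, Pearson's r over the 15 arrays had a median of 0.22 and ran from -0.44 (Ccnb1 with Ccnb2) to 0.68, and 21 of the 28 were positive. The highest was Cdk1 with Top2a, both of which were highest in array 24. It had r = 0.68 (permutation p = 0.00587, adjusted p = 0.211 over 36 pairs) and rho = 0.54 (permutation p = 0.0397), with r of 0.77 in run 2 and 0.56 in run 1. Without the 2 arrays farthest from the median of Cdk1 r was 0.32, so the relation rests on them. With group and run means removed it had r = 0.82 and passed (adjusted permutation p = 0.009), and without arrays 15, 23 and 24 it had r = 0.32 (adjusted permutation p = 0.706). Permuting values left after removing means treats them as exchangeable, which they are not strictly, so that p is approximate. Cdk1 lay under the floor on all 15 arrays and Top2a exceeded it on 3, so the pair rests largely on levels not separated from olfactory receptors. The median r of the 28 mitotic pairs was 0.10 with means removed. Ccnd1 ran against the mitotic genes in 7 of 8 pairs, with a median r of -0.16 and the lowest with Aurka (r = -0.51, permutation p = 0.0494, adjusted p = 0.329, rho = -0.59). On the levels as deposited no pair passed after adjustment, and 3 of the 36 had an unadjusted permutation p under 0.05. The 5 genes nearest to Ccnb2 were Gpd2 (r = 0.897), the mitochondrial glycerol phosphate dehydrogenase, Appl2 (0.890), an endosomal adaptor, Rnf19a (0.881), a ubiquitin ligase, Ero1a (0.880), an oxidase of the endoplasmic reticulum, and Rwdd2a (0.855). The mean level of Rwdd2a (5.1) lay at the floor. None of the 5 is in the cell cycle lists used here.

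Of 14 other genes that carry cells through G1, 13 were measured and 12 lay above the floor, and 0 passed limma's adjusted p at either dose. At an unadjusted p under 0.05, 0 lay higher and 1 lower at 10 µM, the kinase partner of cyclin D, Cdk4 (-0.39 ± 0.17, SE, adjusted p 0.610), and 0 at 100 µM. Over all genes 3.83% lay higher and 3.82% lower at 10 µM, and 6.85% either way at 100 µM. The median difference of these G1 genes was -0.01 at 10 µM and -0.17 at 100 µM, beside 0 and 0.02 over all genes. Cyclin E2 (Ccne2), which acts at the step into S phase, had -0.37 ± 0.18 at 100 µM against DMSO and -0.49 ± 0.17 at 100 µM against 10 µM (limma, unadjusted p 0.0112, adjusted p 0.930). In that comparison 0 of the 13 passed as well.

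Of 27 DNA replication genes 24 were measured, 14 of them above the floor, and 0 passed limma's adjusted p. At an unadjusted p under 0.05, 2 lay higher and 1 lower at 10 µM and 2 higher and 0 lower at 100 µM, with medians of 0.07 and 0.09. Over all genes 3.83% lay higher and 3.82% lower at 10 µM, and 3.43% and 3.42% at 100 µM. The 2 higher at 10 µM were Mcm10 (0.40 ± 0.10, adjusted p 0.350) and Orc1 (0.36 ± 0.10, adjusted p 0.350), which load and fire replication origins and lay at the floor here. The 1 lower was Mcm2 (-0.21 ± 0.08, adjusted p 0.559), which lay above the floor. At 100 µM the 2 higher were Pcna, the sliding clamp of DNA polymerase (0.29 ± 0.13, adjusted p 0.726), and the ribonucleotide reductase subunit Rrm2, at the floor (0.23 ± 0.10). Between 100 µM and 10 µM 1 lay higher and 3 lower, beside 2.65% and 2.34% of all genes.

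Other mitotic genes went both ways, with 21 of 34 positive at 10 µM and 23 of 34 at 100 µM, beside 49.1% and 55.7% of all genes. Of 42 listed, 34 were measured and 20 lay above the floor; Aurkb, Bub1, Cdc20 and Kif20a were among the 14 at it. Their median difference was 0.04 at 10 µM and 0.04 at 100 µM, against 0.29 and 0.08 for the 8 mitotic genes described above. With limma 0 passed the adjusted threshold. At an unadjusted p under 0.05, 1 lay higher and 1 lower at 10 µM, and 3 higher and 1 lower at 100 µM. The shares over all genes were 3.83% higher and 3.82% lower at 10 µM, and 3.43% and 3.42% at 100 µM. The spindle factor Tpx2, which activates Aurka, had 0.67 ± 0.22 at 10 µM (SE, limma, adjusted p 0.465) and 0.53 ± 0.25 at 100 µM (adjusted p 0.728). The 1 lower at 10 µM was Nek2, at the floor (-0.18 ± 0.07, adjusted p 0.552). Ndc80, a kinetochore protein, had 0.76 ± 0.37 at 10 µM and 0.77 ± 0.41 at 100 µM (adjusted p 0.664 and 0.765), and its partner Nuf2, at the floor, had -0.59 ± 0.32 at 10 µM (adjusted p 0.715). Hmmr, a spindle protein at the floor, had 0.71 ± 0.23 at 100 µM (adjusted p 0.649).

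Inhibitors of the cycle and the regulators of the mitotic promoters had mostly positive differences at 10 µM, 9 of 12 and 8 of 9. Positive differences made up 49.1% of all genes, and none of the listed genes passed the test. The median difference of the 12 inhibitors and pocket proteins was 0.07 at 10 µM and 0.02 at 100 µM, beside 0 and 0.02 over all genes. Among the 12, Rb1 (0.02), Cdkn1b (0.01), Rbl2 (0) and Cdkn1c (0) lay close to 0 at 10 µM. Of 16 inhibitors and pocket proteins 12 were measured, 10 above the floor; 4 lay higher and 0 lower at 10 µM at an unadjusted p under 0.05 (3.83% of all genes higher), 2 higher and 0 lower at 100 µM (3.43% of all genes higher), and 0 passed limma's adjusted p. Cdkn1a, the p21 inhibitor induced by p53, had 0.37 ± 0.16 at 10 µM (adjusted p 0.597) and 0.41 ± 0.17 at 100 µM (adjusted p 0.708), and its difference of run 2 minus run 1 was -0.54 ± 0.13 (adjusted p 0.0952). Other p53 targets, Gadd45a and Ccng1, had 0.42 ± 0.15 and 0.21 ± 0.09 at 10 µM (adjusted p 0.488 and 0.607), and Ccng1 had 0.32 ± 0.10 at 100 µM (adjusted p 0.649). Of 12 genes of the MuvB core, B-Myb, FoxM1 and NF-Y, 9 were measured and 8 lay above the floor, with a median of 0.24 at 10 µM and 0.13 at 100 µM. The MuvB subunit Lin37 had 0.46 ± 0.21 at 10 µM and 0.59 ± 0.23 at 100 µM (adjusted p 0.691 at 100 µM), B-Myb (Mybl2), at the floor, had 0.24 ± 0.12 at 10 µM, and Foxm1 had -0.01 ± 0.08.

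Growth signals of hepatocytes had 18 positive and 10 negative differences at 10 µM, and 15 and 13 at 100 µM, beside 49.1% and 55.7% positive over all genes. Of 29 listed, 28 were measured and 23 lay above the floor, with 1 higher and 1 lower at each dose at an unadjusted p under 0.05 and 0 past limma's adjusted p. The shares over all genes were 3.83% higher and 3.82% lower at 10 µM, and 3.43% and 3.42% at 100 µM. The median of the 28 was 0.05 at 10 µM and 0.01 at 100 µM. The early growth transcription factor Jun had 0.35 ± 0.09 at 10 µM (SE, limma, adjusted p 0.350). The 1 lower at 10 µM was Ereg (-0.53 ± 0.24, adjusted p 0.629). The growth factor genes Hgf, Hbegf, Areg, Ereg and Tgfb1 lay at the floor, while Igf1, Tgfa and Egf lay above it.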

How the data were processed

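Transcript levels of 15 biochips were read on 15 Affymetrix rat gene arrays. The authors deposited log2 values, 1 column per array, and the submitters' processing notes name RMA (background correction, quantile normalization, probe summary) and Partek, with versions and settings not given in the sources used here. Array medians lay at 5.38 to 5.51, and no further normalization was applied. In the table, 0 columns belonged to other samples. Of 29214 probe sets, 15310 had 1 gene symbol, and 15279 of these were matched to RefSeq genes (GRCr8) to update names. The probe set of highest mean was kept for the 527 genes with several, leaving 14506 genes.

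All arrays were fitted with limma 3.58.1 in R 4.3.3 (group and title-number run, 11 residual degrees of freedom, 9 with the interaction), with Benjamini-Hochberg adjustment over all genes and a threshold of 0.05. The fit was checked on simulated data. Relations between genes over arrays were tested with 100000 permutations, two-sided. Arrays have no read depth, so their number limits the precision.

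The genes and the pathway and marker lists were chosen with earlier results of these data known. The rule for named genes takes the listed cell cycle genes, up to 3 genes of lowest p per pathway list and dose comparison, of which part are printed, and the 5 genes nearest to Ccnb2 and to Ccnd1. Foxm1, Nuf2, Cd68, Igf1, Tgfa, Egf and single hepatocyte markers were named after their values were seen. So were Ccnd1's marker relation and the at-floor genes given as examples. Alternatives covered the run term, the groups fitted, array weights, arrays left out, normalization, dim genes, probe sets, the variance prior, the floor and the correlation measure.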

Additional observations from a re-analysis of the deposited data

Results flagged for a closer look

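Of 18 combinations of gene and dose, 4, all at 100 µM, had every array of run 2 on one side of that run's DMSO mean and every array of run 1 on the other side of its own. The same share over all genes was not counted, so it is not known whether 4 of 18 is more than usual. For Cdk1 the difference between 100 µM and DMSO was 0.19 in run 2 and -0.21 in run 1, which lie 0.40 apart on the log2 scale. For Top2a it was 0.23 in run 2 and -0.17 in run 1, 0.39 apart, and for Bub1b 0.27 in run 2 and -0.04 in run 1, 0.31 apart. Ccnd1 had the opposite order, -0.30 in run 2 and 0.08 in run 1, a difference of -0.38. The interaction of dose and run in limma passed for none of them, with adjusted p of 0.970 for Cdk1, 0.984 for Top2a, 0.969 for Bub1b and 0.944 for Ccnd1. Each run holds 2 arrays at 100 µM, and Cdk1, Top2a and Bub1b lay under the olfactory receptor floor on all of them. No array of any dose group stood apart from the others of its group for any of the 9 genes (0 of 27 groups by Dixon's test, where chance flags about 1 in 20).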

How the results depend on the processing

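No paired analysis was possible because the groups share no title number. In all 26 alternatives, 0 of the 9 genes passed limma's adjusted p in any of the 3 dose comparisons, and in 22 alternatives 0 passed in either interaction. Leaving out single arrays, the median difference of the 9 genes was 0.20 to 0.28 at 10 µM against DMSO, 0.03 to 0.13 at 100 µM against DMSO and -0.24 to -0.08 at 100 µM against 10 µM, where the lowest was without 100 µM array 27. In run 1 alone these medians were 0.05, -0.07 and -0.21, and in run 2 alone the median at 100 µM against DMSO was 0.23. At 10 µM against DMSO the sign held in all alternatives for Ccnb2 (0.33 to 0.53), Ccna2 (0.20 to 0.35), Top2a (0.32 to 0.68), Aurka (0.04 to 0.53) and Bub1b (0.04 to 0.55), with adjusted p of 0.207 to 0.986. The other 4 genes changed sign in 2 to 7 alternatives, never past the threshold. Of the genes whose sign held, Bub1b lay under the floor on all arrays and Top2a exceeded it on 3. Between the runs, 1 gene of the 9, Ccnb2, passed with array quality weights and 1 without arrays 15, 23 and 24, against 0 as reported. With the 99th percentile as the floor 1 gene, not 4, lay above it on all arrays. Among the pairs, 1 passed once group and run means were removed, Cdk1 with Top2a (r = 0.82, adjusted permutation p = 0.009), against 0 as reported. Cdk1 lay under the floor on all arrays and Top2a exceeded it on 3. In an alternative chosen after seeing the data, the macrophage markers related to 1 gene by Pearson's r, to 0 by Spearman's rho, to 0 without arrays 15, 23 and 24 and to 1 with means removed. Over all genes, 0 to 7 were called at 10 µM, the 7 in run 2 alone, 0 to 1 at 100 µM, 37 to 191 between the runs (79 as reported), 2 to 116 for the 10 µM interaction (6 as reported) and 0 to 22 for the 100 µM interaction (1 as reported). The cause of these shifts was not tested. With dim genes left out, Ccnb1, Cdk1, Top2a and Bub1b had no value.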
